A study of Saccharomyces cerevisiae with 24 samples.

Results

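The protein footprints of 2 budding yeast strains were compared at 30, 35 and 40 min after release from G1. The readout was sub-nucleosomal MNase-seq, in which micrococcal nuclease trims away unprotected DNA and the remaining fragments, too short to come from a nucleosome, mark the sites of transcription factors and other DNA-binding complexes. Members were the peaks with 240 or more reads summed over all 24 libraries of the series, which were 5775 of 58467 peaks. Of these, 104 lay in the ribosomal DNA array on chromosome XII and 5671 outside it, and ratios are given for the latter unless stated. Each strain contributed 1 library at each of the 3 time points, 6 of the 24 libraries of the series. The library is therefore the only unit of replication and no test between strains is possible, so intervals cover counting error only and the 3 time points of a culture are not replicates.

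Both strains were haploid MATa cells of the W303 background, with the alleles ade2-1, can1-100, rad5-535, ura3-1, trp1-1, his3-11, 15 and leu2-3, 112. The sml1Δ control (sml1_delta::URA3) lacked SML1, an inhibitor of ribonucleotide reductase, and so did the SSDDCS strain (sml1_delta::HphNT). The SSDDCS strain also carried 6 initiation factors under the galactose-inducible GAL1-10 promoter as integrated constructs. These were Sld7 and Cdc45 at leu2 (marker LEU2), the constructs labelled SLD3-A and Dbf4-A at his3 (marker HIS3), and Sld2 and Dpb11 at trp1 (marker TRP1). Both cultures were arrested in G1 with the mating pheromone alpha factor, given galactose and released into galactose medium. Both therefore grew on the same sugar. The labels do not say whether more than 1 clone of each strain was used.

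Sld2, Sld3, Dpb11, Dbf4, Cdc45 and Sld7 are limiting for the firing of replication origins, and raising them together lets origins that are normally late or dormant fire early in S phase. A replication fork strips proteins from DNA as it passes. Afterwards nucleosomes and DNA-binding factors compete for the new strands, so a footprint in late S phase reports on sites that have mostly been copied and rebound. Copying also doubles the DNA of a region, and in a bulk sample a change in occupancy, in copy number or in the share of cells that carry the footprint cannot be told apart.

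The sequences that carry the main results are printed here from the R64 reference genome, the build of the files, 5′ to 3′, with capitals on the motif named for each. The control region between GAL1 and GAL10 (chrII:278540-278640, forward strand) is shown because the SSDDCS genotype adds copies of it. Capitals mark 3 matches to the Gal4 consensus, CGG and CCG with 11 bases between them, which 1.73% of member windows hold.
GAL1-GAL10: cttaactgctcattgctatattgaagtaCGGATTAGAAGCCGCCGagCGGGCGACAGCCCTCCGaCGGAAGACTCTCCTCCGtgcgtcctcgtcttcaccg
The next 3 are whole tRNA genes in the direction of transcription, for glutamine (YNCE0008C, chrV:131082-131153, reverse strand; YNCL0009C, chrXII:448650-448721, reverse strand) and glutamate (YNCE0027C, chrV:487331-487402, reverse strand). They are the genes with the lowest ratios among those that hold the B box consensus (GGTTCGA, any 2 bases, then CC) and were lower at all 3 times. Capitals mark the B box, the internal promoter element bound by the RNA polymerase III factor TFIIIC.
YNCE0008C: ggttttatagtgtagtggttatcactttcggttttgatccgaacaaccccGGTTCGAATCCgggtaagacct
YNCL0009C: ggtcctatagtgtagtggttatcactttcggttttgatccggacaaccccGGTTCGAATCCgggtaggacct
YNCE0027C: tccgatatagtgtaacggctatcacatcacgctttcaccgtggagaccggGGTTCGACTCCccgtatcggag
The last 4 are windows reaching 50 bp to each side of promoter peaks described further on, on the forward strand. They lie upstream of IRC7 (chrVI:263281-263381, capitals on the Ume6 site GGCGGC), YIA6 (chrIX:343924-344024, capitals on the stress element AGGGG), ADE8 (chrIV:1288964-1289064, capitals on an Abf1 match) and STB3 (chrIV:794312-794412, capitals on an Abf1 match). Each motif was searched on both strands, and 4.48% of member windows hold the Ume6 site, 11.92% the stress element and 10.3% an Abf1 match.
IRC7: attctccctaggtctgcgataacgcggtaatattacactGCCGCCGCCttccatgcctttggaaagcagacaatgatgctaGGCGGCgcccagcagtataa
YIA6: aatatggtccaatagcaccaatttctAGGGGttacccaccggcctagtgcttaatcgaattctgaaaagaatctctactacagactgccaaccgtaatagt
ADE8: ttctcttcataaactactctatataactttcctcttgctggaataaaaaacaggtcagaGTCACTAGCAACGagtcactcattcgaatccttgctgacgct
STB3: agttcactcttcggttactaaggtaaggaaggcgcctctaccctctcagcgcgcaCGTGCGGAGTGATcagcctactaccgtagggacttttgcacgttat

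The 6 libraries were of similar depth, with 494414 to 516237 reads in all peaks and 349259 to 372750 outside the rDNA. The rDNA array took 27.1 to 30.9% of the reads, and member peaks took 24.6 to 27.8% of the rest. At 3 libraries per strain a member peak had a median of 43 reads per strain. The 104 rDNA members had a summed log2 ratio of SSDDCS to control of -0.06, and 4 of them passed 2-fold. To check the phase, reads of the peaks below the minimum were used as a proxy for DNA copy, comparing peaks over 30 kb from an origin with those within 7 kb. Relative to the G1 library of the same strain, this log2 ratio was -0.09 in the control (95% interval -0.12 to -0.07) and -0.11 in SSDDCS (-0.14 to -0.09) at 30 to 40 min. It had been -0.31 and -0.39 at 15 to 25 min and was 0.00 and 0.01 at 45 to 60 min. A second measure, peaks within 20 kb of ends over those within 20 kb of centromeres, was -0.33, 0.05 and 0.15 in the control and -0.03, 0.05 and 0.14 in SSDDCS at 15 to 25, 30 to 40 and 45 to 60 min, so by it neither strain was below its G1 value in late S phase. Member peaks upstream of the a-specific genes STE2, MFA2 and BAR1 were present in both strains, but STE3, an alpha-specific gene, had 1 as well (67 reads in the control and 59 in SSDDCS), so these footprints do not tell the mating types apart.

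The genotype could be read at the loci it alters. In the GAL1-GAL10 intergenic region, where Gal4 drives the galactose genes, 3 member peaks together had 113 reads in the control and 481 in SSDDCS, a log2 ratio of 2.11 (95% counting interval 1.82 to 2.42). At the deepest of them, 281 bp upstream of GAL1, the control had 15, 14 and 9 reads at 30, 35 and 40 min and SSDDCS had 60, 60 and 72. The peak over the Gal4 sites printed above, 238 bp upstream of GAL10, had 17, 20 and 11 against 52, 50 and 67. The third, 138 bp upstream of GAL10, had 11, 3 and 13 against 23, 49 and 48. The strains did not overlap at any of these, and the ratio of the summed reads was 2.36 in G1. The peak within the GAL1 coding sequence had 14, 15 and 11 reads against 12, 16 and 15 (log2 ratio 0.13, interval -0.53 to 0.79).

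Of the integrated genes and markers, some had peaks with more reads in SSDDCS and others had none. Inside DBF4, which encodes the activating subunit of Dbf4-dependent kinase, the only member peak had 9, 9 and 5 reads in the control and 13, 24 and 23 in SSDDCS, a log2 ratio of 1.39 (0.69 to 2.17). Inside CDC45, encoding a subunit of the active helicase, 3 peaks had log2 ratios of 1.30, 1.33 and 1.47, whereas its deepest assigned peak, 997 bp upstream and inside LCL2, was at -0.24. Of the markers, 2 peaks inside TRP1 were at 1.70 and 1.72, and 2 of 3 peaks inside HIS3 were at 1.68 and 1.84. The deepest assigned peak, upstream of the gene in each case, was at 0.77 for TRP1 (0.17 to 1.39), 0.57 for HIS3 (-0.10 to 1.27), 0.26 for LEU2 (-0.21 to 0.74), 0.43 for DPB11 (-0.14 to 1.03), -0.30 for SLD7 (-0.81 to 0.21) and 0.13 for SML1 (-0.37 to 0.62). Inside LEU2 a peak was at 0.81 (0.14 to 1.52), whereas one inside DPB11 was at 0.02 and those inside SLD7 were at 0.23 and 0.14. SLD2, SLD3 and URA3 had no member peak. In all, 11 of the 28 member peaks in or within 1000 bp upstream of an altered gene were past 2-fold, and all 11 were higher in SSDDCS. The peak 158 bp upstream of DED1, beside HIS3 but not counted among them, had 18, 33 and 18 reads against 48, 53 and 37 (1.02).

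Strong differences were few over the whole set. With the 3 libraries of a strain pooled and 0.5 reads added to each pool, 78 of 5671 member peaks (1.38%) differed by 2-fold or more. SSDDCS was higher at 60 (1.06%) and lower at 18 (0.317%). Without the altered loci 49 of 5643 peaks were higher and 18 lower. Of the 78, 76 had the same sign at 30, 35 and 40 min, although that agreement partly follows from the pooling. Only 16 were past 2-fold at each time. Only 14 of the 78 had 400 or more reads over the 24 libraries. With 480 or more reads, 9 of 1586 peaks were higher and none lower. Of these 9, 3 were the GAL1-GAL10 peaks, 1 was the DED1 peak and 4 lay within 10 kb of a chromosome end. The ninth was 160 bp upstream of MYO3, a type I myosin gene (8, 9 and 12 reads against 15, 27 and 21). In peaks of 240 to 249 reads, just above the minimum, 2.23% of 403 were past 2-fold, and in those of 230 to 239 reads, just below it, 3.31% of 483.

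**Figure D1:**
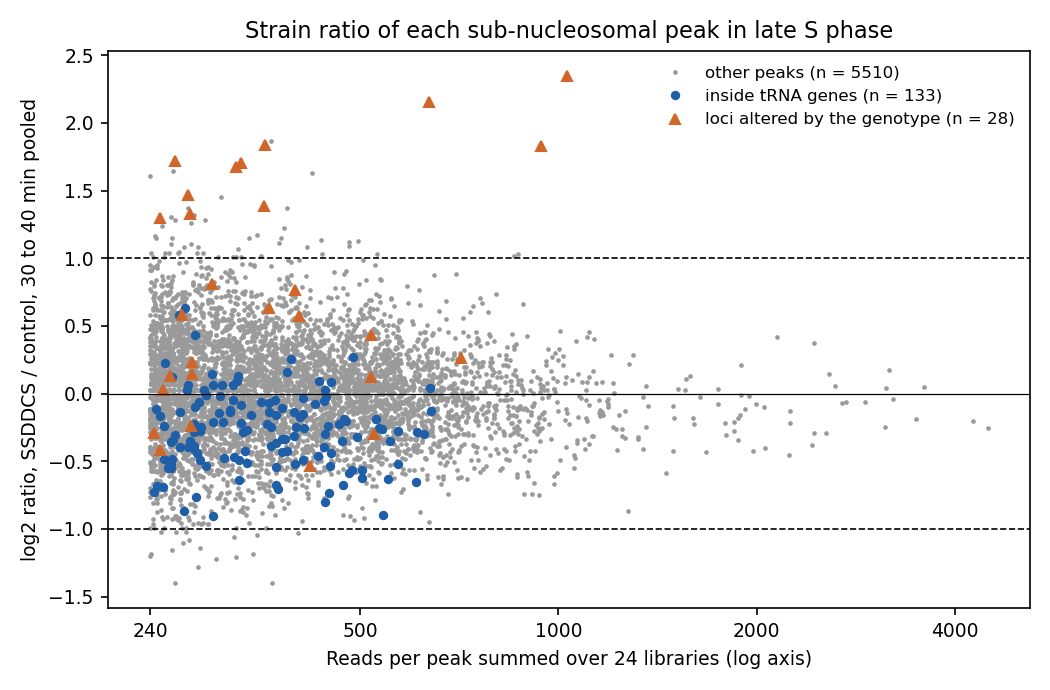
Each point is 1 of the 5671 member peaks, with its reads over the 24 libraries on a log axis and the pooled log2 ratio of SSDDCS to control at 30 to 40 min on the other, and dashed lines mark 2-fold. Peaks at loci altered by the genotype reach 2.35, no tRNA gene peak passes 2-fold, and the scatter narrows as reads increase.

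Single libraries differed between strains about as much as consecutive libraries of 1 strain did. At 30 min 573 peaks (10.1%) were past 2-fold between strains, at 35 min 505 (8.9%) and at 40 min 517 (9.12%). Within the control, 441 peaks (7.78%) passed from 30 to 35 min and 434 (7.65%) from 35 to 40 min. Within SSDDCS the counts were 491 (8.66%) and 447 (7.88%). The SD of the log2 ratios was 0.59 to 0.62 between strains and 0.56 to 0.58 between steps, so a difference at a single peak in a single library is of the size that 5 min within a culture also gives. Over the 5671 peaks the ratios at different times were weakly related (Pearson r of 0.12 to 0.13, as a description, with each pair of ratios from separate libraries of the same cultures). Over the 124 peaks with 1000 or more reads outside the altered loci, r was 0.21 to 0.28.

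By the rule for named peaks (past 2-fold when pooled, 1 sign at all 3 times, outside altered loci and Ty or LTR sequence), 47 peaks were higher and 12 lower, and the first 12 of each are described. The highest was 873 bp upstream of IRC7, which encodes an enzyme that cleaves cysteine and related thiols, 6.83 kb from the right end of chromosome VI. It had 3, 4 and 8 reads in the control and 19, 18 and 18 in SSDDCS, a log2 ratio of 1.86 (1.05 to 2.83). It was at -0.10 in G1, 0.03 at 15 to 25 min and -0.18 at 45 to 60 min, and its window, printed above, holds 3 matches to the Ume6 site. Within the mitochondrial enzyme gene SDH1, encoding a succinate dehydrogenase subunit, a peak had 4, 4 and 7 reads against 24, 10 and 12 (1.61, 0.77 to 2.59), compared with -0.12 in G1. The peak 815 bp upstream of YOL163W had 5, 6 and 2 reads against 20, 9 and 12 (1.64), and that 368 bp upstream of PAU15, of the seripauperin family, had 5, 4 and 7 against 20, 12 and 12 (1.46). The strains did not overlap at any of the 12, which largely follows from choosing them by these same counts. Over all member peaks, not chosen in this way, no overlap in the higher direction held for 6.54%.

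Other peaks of the 12 lay in or upstream of genes of various roles. Inside SCC4, a subunit of the cohesin loader, and 787 bp upstream of YER145C-A, a peak had 5, 9 and 3 reads against 13, 21 and 10 (1.37), and inside ECM32, encoding a DNA helicase, and 978 bp upstream of BMH1 one had 8, 3 and 7 against 16, 14 and 15 (1.32). Upstream of SPT23, a membrane-anchored regulator of fatty acid desaturation, the control had 11, 7 and 11 reads and SSDDCS 22, 25 and 23 (1.28, 0.65 to 1.97). This peak was also at 1.13 at 15 to 25 min and 1.02 at 45 to 60 min, but at -0.07 in G1. Upstream of UBI4, the polyubiquitin gene, the counts were 5, 7 and 9 against 19, 16 and 16 (1.28). The peaks inside TVS1 (1.30) and WTM2 (1.26), the latter a transcriptional modulator, completed the set together with 2 intergenic peaks that were higher in every period. One lay between CYC1, encoding cytochrome c, and UTR1 on chromosome X (9, 12 and 5 reads against 27, 32 and 21), at 1.63 in late S phase and 2.36 in G1. The other, at position 1525239 of chromosome IV, was at 1.37 and 1.66. Whether the integrated constructs or marker cassettes also carry either sequence is not given in the sources used here and was not tested.

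Among the lower peaks, the clearest time by time was 88 bp upstream of YIA6, which encodes a mitochondrial NAD carrier. The control had 18, 22 and 17 reads and SSDDCS 7, 7 and 7, a log2 ratio of -1.40 (-2.21 to -0.67). It was at -0.65 at 15 to 25 min and -0.12 at 45 to 60 min, and its window holds the stress element AGGGG, to which Msn2 and Msn4 bind. Inside ENT2, an endocytic epsin gene, and 418 bp upstream of HRD3, of the ER ubiquitin ligase, the counts were 10, 17 and 22 against 9, 3 and 6 (-1.40). Upstream of ADE8, of purine synthesis, they were 15, 17 and 16 against 5, 7 and 8 (-1.22). This peak was at -0.01 in G1 but lower still at 5 and 10 min (44 reads against 11, -1.95), and at -0.44 at 15 to 25 min. In the gene YBR032W, 349 bp upstream of EDS1, the late counts were 13, 19 and 25 against 5, 10 and 9 (-1.21).

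The remaining lower peaks had log2 ratios of -1.19 to -1.03. They lay inside SIF2, a subunit of the Set3 histone deacetylase complex, and 389 bp upstream of YMC2, inside YIR021W-A and 186 bp upstream of SEC11, the catalytic subunit of signal peptidase, and inside CYS3 and 227 bp upstream of SWC3, a subunit of the SWR1 complex that deposits H2A.Z. Others lay upstream of SRX1, encoding sulfiredoxin (16, 17 and 17 reads against 4, 7 and 12), BBC1, of the actin patch (21, 26 and 17 against 10, 9 and 11), CUE5, a ubiquitin receptor of autophagy (15, 15 and 23 against 3, 7 and 15) and YPP1 (17, 14 and 13 against 5, 8 and 8). One on chromosome X had no gene start within 1000 bp (15, 28 and 22 against 13, 11 and 7). The strains overlapped at the SIF2 and CUE5 peaks and not at the other 10, which again largely follows from the choice by these counts. Over all member peaks, not chosen in this way, no overlap in the lower direction held for 6.52%. Of the 12 higher peaks, 7 had a positive ratio in G1, 8 at 5 and 10 min, 10 at 15 to 25 min and 10 at 45 to 60 min. Of the 12 lower peaks, 7, 3, 11 and 6 had a negative ratio in these periods. Over all member peaks 50.6, 39.2, 44.5 and 40.4% had a positive ratio.

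Several of the higher peaks lay near chromosome ends. Of the 60 peaks past 2-fold higher, 16 lay within 20 kb of an end, where 9.95% of member peaks lie, and none of the 18 lower peaks did. Put the other way, 16 of the 564 members near ends were higher (2.84%), against 1.06% overall. Besides those by IRC7, PAU15 and YOL163W they included the outermost peak of chromosome I, 0.13 kb from its end (18, 22 and 27 reads against 39, 42 and 54, log2 ratio 1.03), and one 360 bp upstream of PAU10 (11, 13 and 12 against 21, 21 and 31, 1.03). The peak inside the Y' helicase gene YRF1-6 (12, 12 and 14 against 29, 21 and 30) and 2 inside YJL225C, one of them with 16, 13 and 11 against 25, 35 and 26, were also among them. In each of these the strains did not overlap, which again partly follows from choosing peaks past 2-fold. Y' and seripauperin genes have near-identical copies at other ends, and how reads with several matches were placed is not given in the sources used here, so these counts may be shared between copies. Among the 18 lower peaks 6 lay in Ty or LTR sequence, to which the same limit applies, and none of the 60 higher peaks did. These 6 were 1.49% of the 403 members in such sequence, against 0.317% lower over all members.

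A group of footprints with mostly 1 sign lay inside tRNA genes, which RNA polymerase III transcribes through the factors TFIIIC and TFIIIB bound within and just upstream of the gene. Of 275 nuclear tRNA genes 133 held a member peak, each 34 to 111 bp (median 61 bp) from the gene's start. In the control these peaks took 0.611, 0.597 and 0.627% of the reads outside the rDNA at 30, 35 and 40 min, and in SSDDCS 0.504, 0.494 and 0.508%. All 3 SSDDCS values were below all 3 control values. Summed, 6666 reads in the control compared with 5384 in SSDDCS, a log2 ratio of -0.28 (95% counting interval -0.34 to -0.23), a difference of -17.9%. The ratio was -0.28, -0.27 and -0.30 at the 3 times, whereas all member peaks together were at -0.06, -0.02 and 0.05.

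The difference was spread over the genes and small at each. Of the 133 peaks, 112 had a negative pooled ratio (84.2%, against 50.8% of all member peaks), with a median of -0.27, and none passed 2-fold. At 21 of them (15.8%) the 3 SSDDCS values were all below the 3 control values, and at none were they all above, against 6.52% and 6.54% of all member peaks. Of the 11 amino acids with 6 or more such genes, all had a negative summed ratio, from -0.06 for lysine (7 genes, interval -0.27 to 0.15) and -0.10 for valine (15 genes, -0.27 to 0.06) to -0.40 for threonine (8 genes, -0.62 to -0.18) and -0.49 for proline (7 genes, -0.70 to -0.28). The lowest single genes were YNCE0008C for glutamine (10, 13 and 23 reads against 8, 10 and 6, -0.90), TRN1 for proline (32, 32 and 31 against 22, 16 and 12, -0.90) and EMT5 for methionine (12, 16 and 17 against 6, 7 and 11, -0.87). At the other extreme YNCD0007C, for valine, had 12, 5 and 13 against 16, 12 and 18 (0.63, -0.05 to 1.35).

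**Figure D2:**
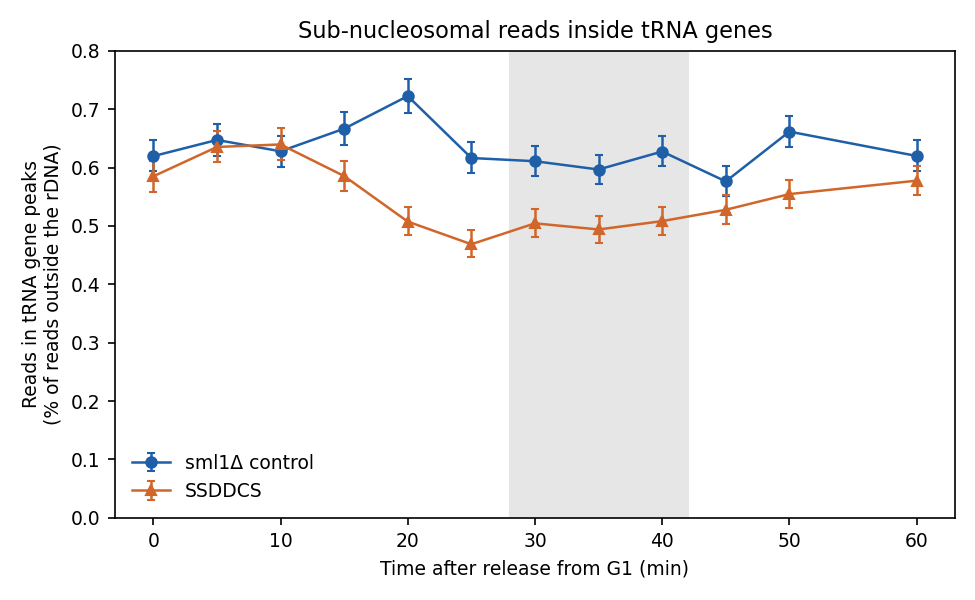
Share of reads outside the rDNA that fell in the 133 tRNA gene peaks, in percent, against time after release, with 95% exact binomial intervals and late S phase shaded. From 20 to 40 min every SSDDCS point lies below every control point, with 0.494 to 0.508% against 0.597 to 0.627% in late S phase.

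The negative ratio recurred in each subset of tRNA genes that was examined. The log2 ratio was -0.25 for the 66 peaks with 240 to 340 reads and -0.31 for the 67 with more, and -0.18 (-0.29 to -0.07) for 67 further tRNA gene peaks below the read minimum. It was -0.32 for genes on the forward strand and -0.26 for those on the reverse strand, and -0.30 within 1 kb of a Ty or LTR and -0.25 farther away. For 16 genes within 20 kb of an end or a centromere it was -0.42 (-0.57 to -0.28), and for the others -0.26. Many tRNA genes are identical in sequence, so reads can be exchanged between copies. The ratio was -0.27 for the 116 genes with an identical copy and -0.36 (-0.51 to -0.21) for the 17 without. Relative to its own G1 library the control was at -0.02 on the log2 scale and SSDDCS at -0.22, whereas all member peaks were at -0.40 and -0.43, lower than the tRNA gene peaks in both strains. Between strains the ratio had been -0.08 in G1, was -0.36 at 15 to 25 min and was -0.16 at 45 to 60 min.

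Around tRNA genes the summed ratio was negative upstream and varied downstream. Peaks outside the gene and 200 to 500 bp upstream of its start were at -0.18 (85 peaks, -0.25 to -0.11), and those within 200 bp upstream at -0.14 (46 peaks, -0.23 to -0.05). At the 3 times the farther set was at -0.31, -0.17 and -0.07 and the nearer set at -0.06, -0.30 and -0.05. The interval included 0 at 40 min in the farther set and at 30 and 40 min in the nearer set. Downstream, the 19 peaks at 120 to 200 bp from the start were at 0.09 (-0.04 to 0.23), with -0.14, 0.11 and 0.30 at the 3 times. The 58 peaks at 200 to 500 bp from the start were at 0.17 (0.09 to 0.26), and 0.16 in G1 as well. Peaks 1 to 3 kb away were at 0.02. Among all 5671 member windows 1.27% hold the B box, of which 61 of 72 are tRNA gene peaks, so the motif's median of -0.22 repeats the same genes.

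Deep peaks, where counting error is least, leaned the same way. Of the 124 member peaks with 1000 or more reads outside the altered loci, 86 had a negative ratio (69.4%), with a median of -0.12 against -0.01 for all members, and 0.05 in G1. The lowest, picked out after the values were seen, was 473 bp upstream of STB3, whose product binds ribosomal RNA processing elements. It had 55, 60 and 65 reads in the control and 34, 31 and 32 in SSDDCS, a log2 ratio of -0.86 (-1.24 to -0.50). The ratio was 0.28 in G1, -0.79 at 5 and 10 min, -0.15 at 15 to 25 min and -0.50 at 45 to 60 min, so it was not low in late S phase alone. The window printed above holds an Abf1 match, an E-box and the Rsc3 motif CGCGC, and the strains did not overlap. A peak inside YJL028W, 702 bp upstream of VPS53, a subunit of a retrograde tethering complex, had 68, 87 and 76 reads against 49, 56 and 46 (-0.59, -0.90 to -0.29). One inside RPR2, a subunit of RNase P, had 55, 60 and 58 against 35, 34 and 47 (-0.55, -0.90 to -0.21). The highest of this class were in an annotated origin 7.53 kb from the left end of chromosome IX (32, 39 and 40 against 52, 58 and 41, 0.47) and 290 bp upstream of YJR115W (34, 36 and 47 against 43, 48 and 67, 0.46), and the strains overlapped at the latter.

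Along chromosomes the strains were close in late S phase. Within 50 kb of a chromosome end 965 member peaks had a summed log2 ratio of 0.04 (0.02 to 0.06), with 0.00, 0.03 and 0.09 at 30, 35 and 40 min. Within 50 kb of a centromere 753 peaks were at -0.04 (-0.06 to -0.02), with -0.09, -0.05 and 0.02. The remaining 3971 peaks were at -0.02. Both sets, like all members together, had their highest ratio at 40 min. The 256 peaks within 5 kb of an end were at 0.06 in late S phase, but at 0.18 in G1 and 0.21 at 15 to 25 min. In the peaks below the read minimum the ratio was 0.08 to 0.09 in each of the 3 bins within 20 kb of an end, 0.04 at 30 to 50 kb and -0.01 beyond 200 kb. At 15 to 25 min it had been 0.24 to 0.27 in those bins, and in G1 0.05 to 0.17. By distance from an origin, member peaks differed little, with 0.01 for 2415 peaks within 7 kb and -0.02 for 476 peaks over 30 kb away.

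**Figure D3:**
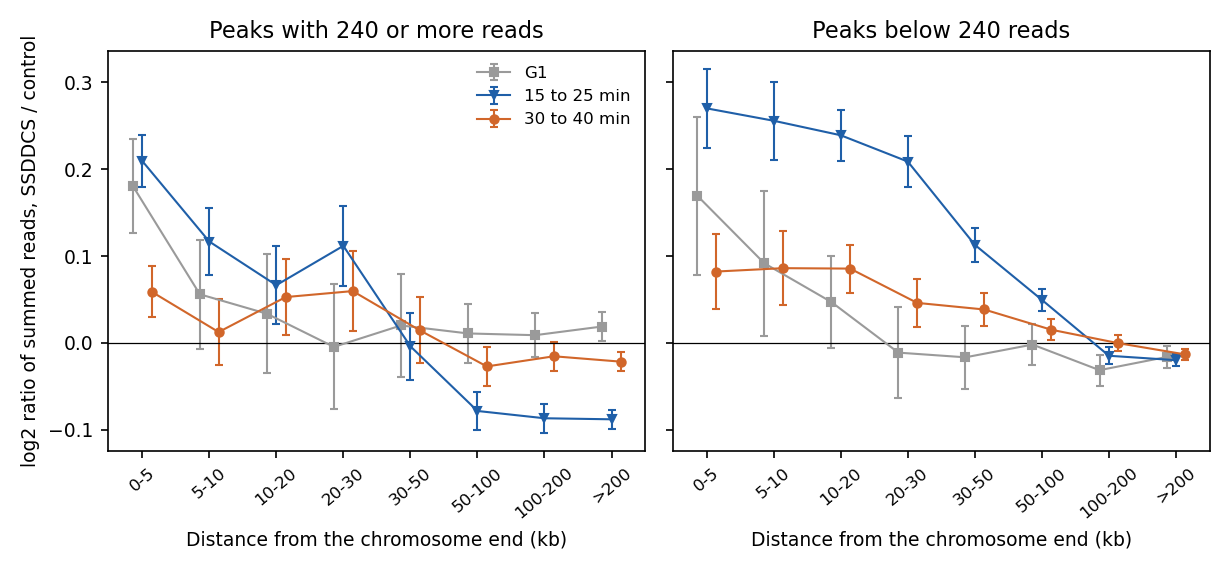
Log2 ratio of summed reads, SSDDCS to control, against distance from the nearest chromosome end in kb, for peaks with 240 or more reads and for peaks below 240 reads, with 95% counting intervals. The late S phase points lie between -0.03 and 0.09, below the 15 to 25 min points of 0.21 to 0.27 in the bins up to 30 kb of the thinner peaks.

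In windows of 20 kb with 300 or more pooled reads, 579 for member peaks, the 5 highest were chrXII:340001-360000 around CDC45 (0.97), chrII:260001-280000 with GAL1-GAL10 (0.83), chrVI:260001-270161 with IRC7 (0.52, 0.24 to 0.79), chrXV:720001-740000 with HIS3 (0.49) and chrVII:1-20000 (0.43, 0.15 to 0.71). Thus 3 of the 5 held altered loci. The 5 lowest were chrX:500001-520000 (-0.64, -0.91 to -0.37), chrIV:780001-800000 (-0.62), whose 2 member peaks include that of STB3, chrX:400001-420000 (-0.47), chrVII:460001-480000 (-0.39) and chrVII:440001-460000 (-0.39). For the window of chromosome X with the lowest value, the 6 member peaks were at -0.98, -0.48 and -0.50 at the 3 times, and the 85 thinner peaks of the same window were at -0.34 (-0.47 to -0.22). Its member ratio was also -0.52 in G1. In the other 4 low windows the thinner peaks were at 0.07, 0.09, -0.02 and -0.16. Over the 569 member windows without altered loci the SD of the log2 ratio was 0.14, compared with 0.19 at 15 to 25 min, and the late S phase values were related to those at 15 to 25 min (Pearson r = 0.41, and 0.62 over 595 windows of thinner peaks, as a description of windows that share libraries).

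Over all members 1.06% were past 2-fold higher and 0.317% lower. By position relative to genes, the 1093 member peaks inside coding sequence were at 0.05 (0.04 to 0.07). Of these 28 were past 2-fold higher (2.56%), 8 of them in altered genes, and 5 lower (0.46%). The 3579 promoter peaks, in intergenic DNA within 1000 bp upstream of a gene, were at -0.02. Of these 23 were higher (0.64%), 3 of them at altered loci, and 6 lower (0.17%). The 83 peaks within annotated origins were at -0.02 (-0.07 to 0.04), with 1 higher (1.2%) and none lower. The 403 in Ty or LTR sequence were at 0.00. The ratio also varied with base composition, from -0.06 in the fifth of peaks with the lowest GC content to 0.08 in the fifth with the highest, whose G1 values were 0.02 and 0.07. The tRNA gene peaks had a median GC content of 44.6% against 42.6% for all members, and the part of base composition in their ratio was not tested.

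Promoter peaks of 16 gene lists were compared with the median of -0.01 over all members. For these lists a promoter peak is any member peak within 1000 bp upstream of a listed gene, also one inside a neighbouring gene. Some lie nearer the start of another gene. The peaks named below for PDS1, TUB4, MRC1, HTA1, RPD3, HIR1, HUG1 and RNR2 lay inside another gene. For most lists the medians were within 0.10 of 0. The extremes were the galactose genes (17 peaks, median 0.18, 3 past 2-fold, all 3 in the GAL1-GAL10 region, and median -0.01 without them), thiamine genes (21 peaks, 0.17), S/G2 genes (16 peaks, -0.18) and M/G1 genes (26 peaks, -0.18). Of the S/G2 peaks 13 were negative and 3 positive, but the summed ratio was -0.28, -0.35 and 0.11 at 30, 35 and 40 min, so the sign did not hold at 40 min. The M/G1 list behaved likewise, with -0.19, -0.32 and 0.08. The thiamine list was at 0.21, 0.23 and 0.02, and its median was already 0.24 in G1. With 35 min left out the galactose median was -0.06. In the S/G2 list the lowest peaks were those of the kinesin gene CIN8 (18, 28 and 14 reads against 11, 15 and 11, -0.67) and the securin gene PDS1 (-0.49), and the highest those of TUB4 (0.23), encoding gamma-tubulin, and KIP1 (0.25), another kinesin. In the M/G1 list they were SIC1 (-0.60), encoding a CDK inhibitor, 2 peaks of the cyclin gene CLN3 (-0.51 and 0.36) and EGT2 (0.36). No peak of either list passed 2-fold.

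Genes that act in S phase itself showed no common direction. Of 36 promoter peaks of G1/S genes driven by MBF and SBF 17 were positive and 19 negative (median -0.05), from the repressor gene YOX1 (26, 27 and 29 reads against 9, 16 and 17, -0.93, no overlap) and the cyclin gene CLN1 (-0.72) to RFA1 (0.54), of the single-strand binding complex, and the cyclin gene CLB6 (12, 8 and 9 against 18, 12 and 17, 0.71). Replication fork and origin genes had 18 peaks with a median of -0.04. ORC4 (-0.96) and ORC3 (-0.71), subunits of the origin recognition complex, were lowest, and the checkpoint mediator gene MRC1 (0.34) and ORC6 (0.39) highest. Core histone genes had 13 peaks with a median of 0.05. The linker histone gene HHO1, kept in this list, had the highest value (12, 11 and 6 against 23, 18 and 14, 0.94) before HTA1 (0.70), and HTA2 (-0.18) and HHT2 (-0.14) the lowest. Chromatin assembly and remodelling genes had 30 peaks at a median of 0.02, with RPD3 (-0.80), a histone deacetylase gene, and UME6 (-0.63) lowest and the histone chaperone genes ASF1 (0.55) and HIR1 (4, 7 and 10 against 14, 15 and 14, 1.04) highest. The HIR1 peak, which lies inside ALK2 and 578 bp upstream of HIR1, was the only one past 2-fold in these 4 lists. The DNA damage and nucleotide supply list had 20 peaks at a median of -0.06, with HUG1 (-0.87) and a peak assigned to RNR2 (-0.59, the deep peak in YJL028W) lowest and RFX1 (0.43) and DDR48 (0.50) highest.

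In the G2/M list of 24 peaks the median was -0.04. Its lowest peaks were those of ALK1 (-0.78), a haspin kinase gene, and the myosin gene MYO1 (-0.54), and its highest those of CHS2 (0.43), a chitin synthase gene, and BUD8 (0.86). None of them passed 2-fold.

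Medians of most housekeeping and inducible lists were also near 0. The 188 promoter peaks of cytoplasmic ribosomal protein genes had a median of 0.02, with 96 positive and 92 negative. Of these 2 were past 2-fold higher, RPL21A (5, 5 and 11 reads against 14, 13 and 18, 1.11) and RPS20 (7, 3 and 9 against 13, 11 and 15, 1.04), or 1.06%, the same share as over all members, and RPS9B (-0.96) and RPS29B (-0.78) were lowest. The other medians were 0.02 for glycolytic genes (44 peaks, TDH2 -0.52 and PFK2 -0.49 to HXK1 0.62 and TPI1 0.63), -0.04 for ribosome biogenesis genes (26 peaks, NOG1 -0.70 and HAS1 -0.69 to NOG2 0.39 and CBF5 0.60) and -0.03 for meiotic genes repressed by Ume6 (13 peaks, IME1 -0.70 and MSH4 -0.57 to 2 peaks of IME2 at 0.35 and 0.49). Pheromone response genes were at -0.04 (16 peaks). Their lowest were the cell fusion gene FUS1 (-0.89) and the phosphatase gene MSG5 (-0.79), and their highest the pheromone receptor gene STE2 (0.86) and the a-factor gene MFA2 (0.97).

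Stress genes of Msn2 and Msn4 were at 0.02 (36 peaks), and YGP1, a secreted stress glycoprotein, had both the lowest and the highest peak of the list. The one 289 bp upstream was at -0.68 (18, 22 and 19 reads against 10, 10 and 16) and the one 439 bp upstream at 1.23 (8, 9 and 4 against 18, 16 and 15), with no overlap at either. PNC1 (-0.52) and GPH1 (1.08) were the others named. The YGP1 peak at 1.23 and that of GPH1 were the 2 of 36 past 2-fold higher (5.56%, against 1.06% of all members). None was past 2-fold lower. Thiamine genes ranged from THI6 (-0.43) and THI5 (-0.11) to THI4 (0.71) and THI2 (8, 11 and 11 against 15, 22 and 19, 0.91), and outside the GAL1-GAL10 region the galactose genes included the signal transducer gene GAL3 (22, 21 and 40 against 17, 23 and 15, -0.57) and GAL7 (-0.44).

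**Figure D4:**
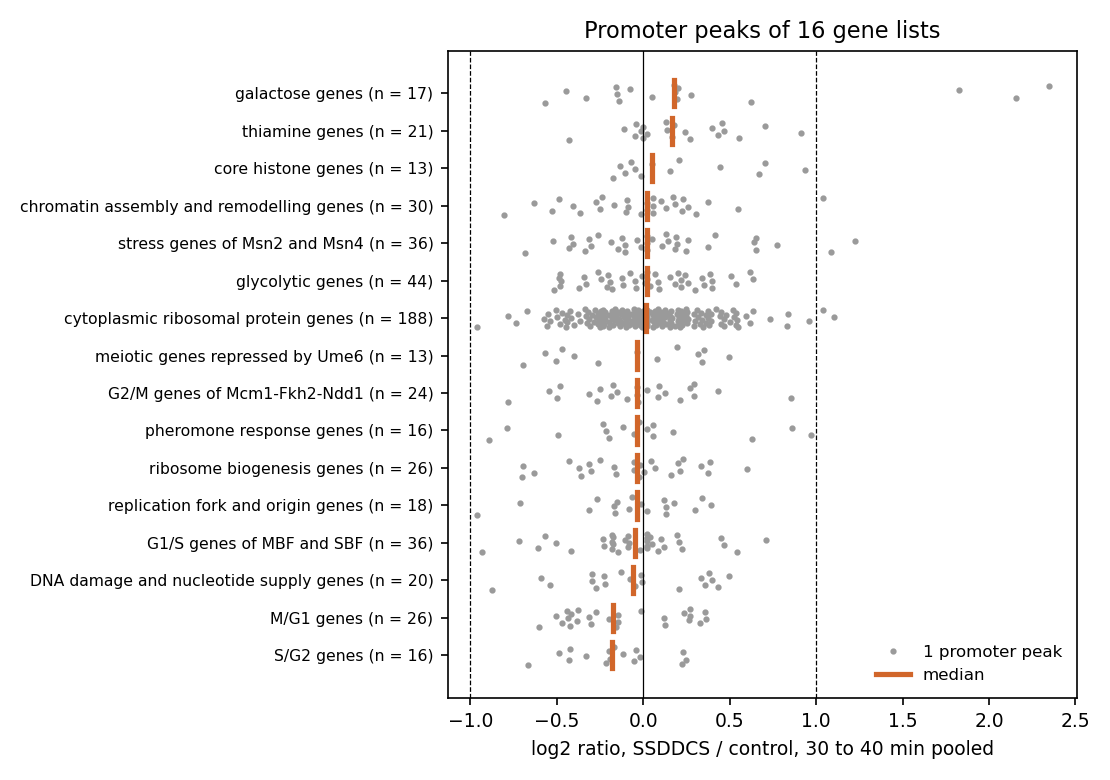
Pooled log2 ratio of SSDDCS to control at 30 to 40 min for each promoter peak (grey) of 16 gene lists, with the median of a list in orange, n the number of peaks and dashed lines at 2-fold. Promoter peaks here include those inside a neighbouring gene. Medians run from -0.18 to 0.18, and the 3 points beyond 1.8 are the GAL1-GAL10 peaks.

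Motifs within 50 bp of a peak separated the strains as little. Of 21 consensus sequences, searched on both strands, the B box had the lowest median, and the next lowest were those of Rap1 (66 peaks, -0.12), the origin recognition complex (32 peaks, -0.11, but 0.13 with a window of 25 bp to each side), Forkhead factors (GTAAACA, 111 peaks, -0.08) and Gal4 (98 peaks, -0.08, of which 20 are tRNA gene peaks). Peaks with the general regulatory factor sites of Reb1 (TTACCCG, held by 5.54% of member windows) and Abf1 (10.3%) had medians of -0.07 and -0.03. For Reb1 120 of 314 peaks were positive, and the summed ratio was -0.14, -0.14 and 0.00 at the 3 times. The highest medians were those of Gcn4 (TGACTCA, 1.3% of windows, 74 peaks, 0.08), SBF (CACGAAA, 2.17%, 123 peaks, 0.08) and Ume6 (GGCGGC, 4.48%, 254 peaks, 0.06). Of the Ume6 set 143 peaks were positive (56.3%, against 49.2% of all members). Only 5 were past 2-fold higher (1.97%, against 1.06% of all members), IRC7, SCC4 and a GAL1-GAL10 peak, at an altered locus, among them.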

How the data were processed

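The labels and methods say that crosslinked cells were digested with MNase and that short fragments were sequenced in 24 libraries, 1 per strain and time point. The authors aligned reads (the labels name Bowtie2 2.2.6, SAMtools 0.1.19 and the build sacCer3, which is R64), drew equal read numbers at each fragment length from the libraries, and called peaks after merging all of them. Their deposited file holds whole-number read counts per peak and library and 1 position per peak. The counting window, the handling of reads with several matches and whether positions start at 0 or 1 are not given in the sources used here. The strains are W303 and the reference is S288C.

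Counts were divided by library totals without the rDNA array. For each peak the log2 ratio used the summed counts of 30, 35 and 40 min with 0.5 added per strain, and groups of peaks used summed counts without it. Intervals are exact (Clopper-Pearson) 95% intervals of the SSDDCS share of reads, except that of the replication check, which uses a normal approximation. Counts were checked for libraries with identical values, of which there were 0. Analyses ran in Python 3.11.15 with pandas 2.3.3 and SciPy 1.17.1. The code of the ratio was also run on simulated counts with counting error only and planted changes larger than most differences reported here. That run does not bear on smaller differences or on variation between libraries. Gene positions came from the RefSeq R64 annotation. The members and gene lists were chosen with earlier results of these data known. Named peaks were the 12 highest and 12 lowest past 2-fold with 1 sign at 30, 35 and 40 min outside altered loci and Ty or LTR sequence, the deepest member peak of each altered gene, the 2 highest and 2 lowest promoter peaks of each list and the 5 highest and 5 lowest windows. Alternatives changed the fold, read minimum, scaling, pooling, added reads, repeats, G1 baseline, windows and time points.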

Additional observations from a re-analysis of the deposited data

Results flagged for a closer look

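Of the 24 named peaks, 3 had 1 sign of the strain ratio at 30, 35 and 40 min and the opposite sign at all 3 times of another period, and the difference between periods was not tested. The peak inside SCC4 was at 1.37 in late S phase and at -0.35 at 15 to 25 min, with single values of -0.76, -0.07 and -0.12. The peak upstream of ADE8 was at -1.22 and then at 0.42 at 45 to 60 min, with 0.90, 0.26 and 0.06. The peak inside SIF2, upstream of YMC2, was at -1.19 and then at 0.25 at 45 to 60 min, with 0.02, 0.46 and 0.20.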

How the results depend on the processing

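No paired analysis was possible because each strain has 1 library per time point and no test was run. The counts past 2-fold (60 higher and 18 lower) moved with the threshold and depth. They became 365 and 284 at 1.5-fold, 11 and 0 at 3-fold, 32 and 10 with 5 reads added to each pool, 9 and 0 with 480 or more reads, 92 and 55 of 8111 peaks under the study's sum rule as rebuilt here, and 326 and 301 after subtracting the G1 ratio of single libraries. The rebuilt sum rule passed more peaks than the paper reports, so that set is not the paper's own. The mean of the single ratios gave 30 lower. Leaving out 1 time point at a time gave 99 to 122 higher and 48 to 87 lower, with fewer reads per pool. Scaling with the rDNA array, by the median or by member peaks, leaving out Ty and LTR peaks, requiring 1 sign or leaving out the altered loci (chosen after seeing the data) left both counts within 1.5 times.

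The ratio within 50 kb of ends (0.04) was 0.071 as a median of peaks, 0.058 with the rDNA in the totals, -0.028 after subtracting G1, an opposite sign, and 0.014 to 0.060 with 1 time point left out. That within 50 kb of centromeres (-0.04) was -0.063 without the altered loci (chosen after seeing the data) and -0.073 to -0.017 with 1 time point left out. The tRNA gene ratio (-0.28) was -0.20 after subtracting G1, -0.18 in tRNA gene peaks below the read minimum, -0.26 over 20 kb from ends and centromeres (both chosen after seeing the data) and -0.29 to -0.27 with 1 time point left out. The promoter ratio (-0.02) ran from -0.050 without 40 min to 0.0098 without 30 min, an opposite sign. The cause of these shifts was not tested. Of 112 list medians under alternatives 17 had the opposite sign, among them that of the galactose genes (-0.10 after subtracting G1 and -0.06 without 35 min), and of 147 motif medians 17, among them that of the origin recognition complex (0.13 with a 25 bp window).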
